A study of Drosophila melanogaster with 12 samples.

Results

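The genes described here encode the subunits of the Drosophila melanogaster proteasome and their testis paralogs. They were chosen by FlyBase symbol, as every gene whose symbol starts with Prosalpha or Prosbeta, or with Rpn or Rpt and a digit. The choice gave 48 of the 17559 gene IDs counted. Of these, 32 were standard subunits, and 16 carried a suffix of T or R with or without a number. These 16 are called testis forms here by their symbol alone, whatever their level in testes. The standard subunits comprised 7 of the alpha ring, 7 of the beta ring, 6 ATPases and 4 other subunits of the base, and 8 of the lid.

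The proteasome degrades proteins tagged with ubiquitin. Its core particle is a barrel of outer alpha rings, which gate the entry, and inner beta rings, in which Prosbeta1, Prosbeta2 and Prosbeta5 carry the peptidase sites. A regulatory particle caps the barrel. The Rpt ATPases of its base unfold the substrate, the ubiquitin receptors Rpn10 and Rpn13 hold it, and Rpn11 of the lid removes its ubiquitin. Flies carry second copies of many subunit genes, several of which are known to be used in the male germline. Prosalpha6T, for example, replaces Prosalpha6 during late spermatogenesis.

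Polyadenylated RNA was sequenced from dissected gonads of flies aged 1 to 3 days and raised at 25 °C. All 12 libraries came from bam mutants, in which germ cells do not leave the early dividing state, a limit that all groups share. The 4 groups, with 3 biological replicates each, were ovaries of virgin bam females (bam ovaries), testes of bam males (bam testes), and ovaries of virgin bam females with RNA interference against mCherry or against Sxl (mCherry RNAi and Sxl RNAi ovaries). Sxl is the switch gene of female development and encodes a splicing regulator, and mCherry is not a fly gene. The sources used here do not name the bam alleles or the driver of the RNAi, and whole gonads include somatic cells.

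Depth was 16152230 to 25097969 reads assigned to genes per library. Levels are in CPM, counts per 1000000 assigned reads after scaling by trimmed means of M values (TMM), and levels of different genes are compared only as CPM per kb of exon. The mCherry RNAi ovaries held 501, 511 and 534 CPM of Sxl, and the knockdown ovaries 141, 198 and 224 CPM. The log2 fold change of Sxl was -1.44 with a standard error (SE) of 0.18 and an adjusted p of 0.0466 (edgeR quasi-likelihood test with Benjamini-Hochberg adjustment, as for all adjusted p-values below). The summed level of 5 germ cell markers was 1726 to 1913 CPM in bam ovaries and 1131 to 1504 CPM in bam testes, but its members went different ways. The piRNA gene piwi was lower in testes (897 and 308 CPM), and nanos (136 and 260 CPM) and zpg (132 and 247 CPM) were higher, all 3 past the threshold. Of the other marker lists, 8 spermatocyte genes summed to 67.7 to 70.8 CPM in bam ovaries and 96.3 to 102 CPM in bam testes. This list was mixed as well. Of 5 tested, 3 passed as higher in testes, twe (26.5 and 45.1 CPM), mia (23.9 and 31.3 CPM) and nht (0.195 and 3.23 CPM). The gene aly was similar (16.5 and 17.7 CPM), and Rbp4 (1.93 and 0.838 CPM) was lower without passing. The untested can, sa and fzo had means of at most 0.314 CPM, lower in testes. The 6 spermatid and sperm genes summed to at most 0.118 and 2.07 CPM, with Mst84Da, Mst98Ca and ProtA at 0 in both groups. Only Mst87F of this list was tested, and it passed as higher in testes (means of 0.0392 and 1.64 CPM, log2 5.25, adjusted p = 0.00379). The somatic lists were not alike. Of 5 gonad soma genes 2 passed, both lower in testes, and the summed level of 4 hemocyte genes overlapped between the groups. The follicle cell and yolk list and the muscle list differed more. The 6 follicle cell and yolk genes summed to 6247 to 7065 CPM in bam ovaries and 27.0 to 43.4 CPM in bam testes, and 5 muscle genes to 6604 to 9273 and 763 to 1097 CPM. Bam testis replicate 2 stood apart, with 1786 CPM of 6 accessory gland genes against 66.5 and 135 CPM in the other testis libraries, and with the lowest TMM factor, 0.807 against 0.963 and 1.06. Bam ovaries held 0.619 to 4.28 CPM of these accessory gland genes, and all 6 passed as higher in testes. In such bulk libraries fewer cells of a type and less RNA per cell cannot be told apart, and the part of these lists in the results below was not tested.

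The values of 1 standard subunit are uncertain. Prosalpha1 (FBgn0263121, 2R, 7827303 to 7828678, minus strand, BDGP6) had 4 to 21 counts per library, and its tandem copy Prosalpha1R (FBgn0050382, 2R, 7830413 to 7831771, minus strand) had 2 counts in all. Both genes have 4 exons, with 969 and 952 exon bases. They lie in tandem, and the symbol marks the second as a paralog of the first. Reads that aligned to more than 1 place, 7.30% to 12.6% of a library, were not assigned to genes, and how many of them came from this pair was not tested, so both values are treated as uncertain. Prosalpha1 is left out of the counts below, which cover the other 31 standard subunits.

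Of the 16 testis forms, Prosalpha1R has the uncertain value given above, and 10 had no or very few assigned reads in every group. Prosalpha3T, Prosbeta4R1 and Prosbeta4R2 had no count in any of the 12 libraries, where 3 counts, taken as the limit that a count of 0 allows, correspond to 0.115 to 0.231 CPM. Another 7 had at most 7 counts in any library and were too low to test. Prosalpha6T had 1 and 7 counts in bam testis replicates 1 and 2 and none in the other 10 libraries. Its highest count fell in the testis library with the most accessory gland RNA, whose part in it was not tested. Prosalpha4T2 had 1 and 2 counts in bam ovaries, 4, 2 and 3 in mCherry RNAi ovaries, 2 in a Sxl RNAi ovary and none in testes. Rpn13R had 4 counts in Sxl RNAi replicate 2 and 1 count each in bam ovary replicates 1 and 3 and bam testis replicate 3. The remaining forms held still fewer counts. Prosbeta2R1 had 3 counts in bam ovary replicate 1 and 1 in Sxl RNAi replicate 1, and Prosalpha4T1 had 1 count in each of 4 libraries, all of them ovaries. Prosbeta5R1 had 1 count in an mCherry RNAi and 1 in a Sxl RNAi library, and Prosbeta5R2 had 1 count, in a bam testis. None of the T forms of the alpha ring, nor any paralog of Prosbeta4 or Prosbeta5, was thus detected above a few reads in bam testes.

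The other 5 testis forms, 3 of them ATPases, passed the filter on low counts in each comparison. In bam testes against bam ovaries all 5 changed, 2 upward and 3 downward, where 32.7% of the 9738 genes tested changed in either direction.

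Rpt4R (FBgn0036224, 3L, 11941912 to 11943485, plus strand, 2 exons) is the paralog of Rpt4, an ATPase of the base ring. It stood at 132, 176 and 103 CPM in bam testes and at 2.05, 3.06 and 3.05 CPM in bam ovaries. The mCherry RNAi ovaries held 2.33, 2.60 and 2.56 CPM, and the Sxl RNAi ovaries 2.76, 5.18 and 3.30 CPM. The 3 testis libraries were thus far above all 9 ovary libraries. The fold change between testes and ovaries was 49.8 (log2 5.64, SE 0.28, adjusted p = 6.36e-05), and it passed the threshold in all 13 alternative analyses. In the Sxl RNAi comparison every Sxl RNAi library was above every mCherry RNAi library, but the log2 fold change of 0.61 (SE 0.29) had an adjusted p of 0.493.

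Rpt3R (FBgn0037742, 3R, 9754735 to 9756510, minus strand, 3 exons), the paralog of the ATPase Rpt3, was expressed in all 4 groups. Its level was 65.5, 83.5 and 66.8 CPM in bam testes and 36.6, 39.0 and 51.2 CPM in bam ovaries. It was 33.8, 39.0 and 39.2 CPM in mCherry RNAi ovaries and 32.5, 38.9 and 36.4 CPM in Sxl RNAi ovaries. Testes were again above all ovaries, and the 3 ovary groups overlapped. The rise in testes was 0.76 (log2, SE 0.17, adjusted p = 0.0162). It missed the threshold without bam ovary replicate 1 (adjusted p = 0.0720) and without bam ovary replicate 2 (adjusted p = 0.0785).

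Rpt6R (FBgn0039788, 3R, 30582198 to 30583697, minus strand, 2 exons), the paralog of the ATPase Rpt6, went the other way. It stood at 9.0, 9.64 and 10.8 CPM in bam ovaries and at 2.45, 3.00 and 3.25 CPM in bam testes. The mCherry RNAi ovaries held 8.33, 8.45 and 9.65 CPM and the Sxl RNAi ovaries 8.81, 7.89 and 7.33 CPM. All 9 ovary libraries were above the testes. Rpt6R fell by 1.76 in testes (log2, SE 0.21, adjusted p = 0.00137), a change that passed the threshold in all 13 alternatives.

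Prosbeta2R2 (FBgn0037296, 3R, 5217751 to 5219528, minus strand, 3 exons), a paralog of the catalytic subunit Prosbeta2, was also lower in testes. Its level was 4.05, 4.23 and 5.72 CPM in bam ovaries and 2.15, 2.15 and 1.94 CPM in bam testes. It was 3.13, 3.12 and 2.26 CPM in mCherry RNAi ovaries and 2.22, 1.70 and 1.68 CPM in Sxl RNAi ovaries. The bam ovaries stood above the other 3 groups, while testes overlapped the Sxl RNAi ovaries. Prosbeta2R2 fell by 1.17 between bam ovaries and testes (log2, SE 0.25, adjusted p = 0.0126), although without bam testis replicate 1 the adjusted p was 0.0559. Its log2 values of -0.59 (SE 0.26, adjusted p = 0.453) in the Sxl RNAi comparison and -0.72 (SE 0.25, adjusted p = 0.146) between mCherry RNAi and bam ovaries did not pass.

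Rpn12R (FBgn0036465, 3L, 15041631 to 15042570, minus strand, 1 exon), the paralog of the lid subunit Rpn12, rested on few reads. Bam ovaries had 19, 13 and 34 counts of it, and bam testes 7, 2 and 6. The mCherry RNAi ovaries had 16, 20 and 18 counts and the Sxl RNAi ovaries 6, 15 and 7. Bam ovaries and testes did not overlap, at 0.764 to 1.82 CPM against 0.154 to 0.419 CPM. The log2 fold change was -1.91 (SE 0.53, adjusted p = 0.0341), but leaving out any 1 of the 6 libraries took the adjusted p to between 0.0556 and 0.0843.

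**Figure D1:**
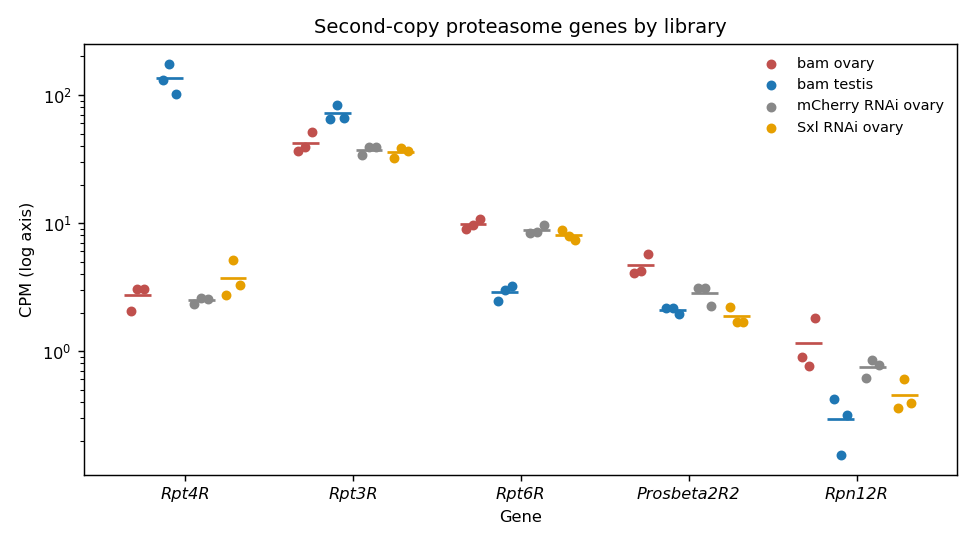
Levels of the 5 testis forms that could be tested, in CPM on a log axis, with 1 point per library and a line at the mean of each group of 3. Rpt4R in bam testes, at 103 to 176 CPM, stands far above its 9 ovary points, which lie between 2.05 and 5.18 CPM; Rpt6R is lowest in testes.

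The weight of these paralogs differed when each was set beside its standard partner. Per kb of exon, Rpt4R made up 1.15% ± 0.204 (SD, n = 3) of the summed Rpt4 and Rpt4R level in bam ovaries and 40.1% ± 1.75 in bam testes. In the 3 testis libraries the share lay between 38.2% and 41.6%, a narrow range beside the spread of the summed level, 179 to 282 CPM per kb. The partner Rpt4 itself was at 215, 225 and 240 CPM in bam ovaries and 188, 242 and 162 CPM in bam testes, which overlapped (log2 -0.21, SE 0.16, adjusted p = 0.350). The summed level of the pair was 157 ± 8.97 CPM per kb in bam ovaries and 226 ± 52.2 in bam testes, with no overlap. In mCherry RNAi and Sxl RNAi ovaries the Rpt4R share was 1.15% and 1.65%.

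Rpt3R made up 13.5% ± 0.954 of its pair in bam ovaries and 25.1% ± 2.18 in bam testes. Here the summed level was similar in both, 214 ± 24.9 and 199 ± 37.5 CPM per kb. Rpt3 had 259, 282 and 320 CPM in bam ovaries and 226, 284 and 188 CPM in bam testes, with overlap (log2 -0.32, SE 0.17, adjusted p = 0.206). The Rpt6R share was 4.18% in bam ovaries and 1.57% in bam testes. Its partner Rpt6 held 186, 213 and 264 CPM in the ovaries and 185, 215 and 146 CPM in the testes (log2 -0.29, SE 0.19, adjusted p = 0.289). Prosbeta2R2 and Rpn12R stayed minor, at no more than 2.00% of their pairs in any library. Some reads may align to both genes of such a pair and would then not be counted, and how many did so was not tested.

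**Figure D2:**
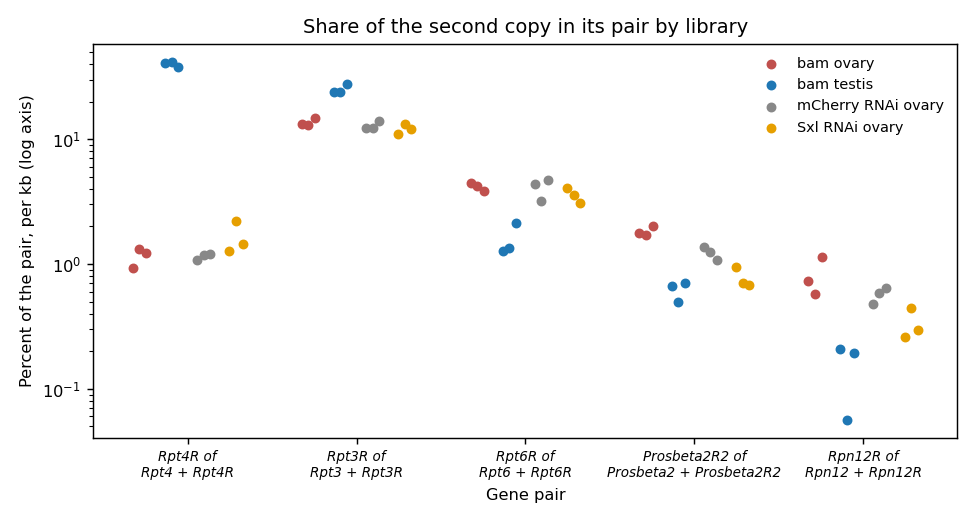
Share of each testis form in the summed CPM per kb of the form and its standard partner, in percent on a log axis, with 1 point per library in 4 groups of 3. The Rpt4R share in bam testes, 38.2% to 41.6%, and the Rpt3R share, 23.6% to 27.6%, stand above those of all ovary libraries.

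The standard subunits were among the more abundant RNAs of every group. In bam ovaries the 31 genes had a median of 173 CPM per kb, from 101 ± 13.2 for the ubiquitin receptor Rpn13 to 238 ± 24.2 for the alpha subunit Prosalpha2, a ratio of 2.36. In bam testes the median was 217 CPM per kb, from 130 ± 24.4 for Rpt6 to 327 ± 88.8 for the beta subunit Prosbeta6. Prosalpha2 was also highest in mCherry RNAi and Sxl RNAi ovaries, at 235 ± 16.2 and 260 ± 5.62 CPM per kb, while the lowest there were Rpn3 of the lid, at 107 ± 9.79, and Rpn13, at 109 ± 4.19. The median subunit stood at the 96.2 to 96.5 percentile of the 10175 genes that passed the filter on low counts over all 12 libraries and have an exon length, whose own median was 13.3 to 13.7 CPM per kb. In the order of these levels all 30 neighbouring pairs differed by less than the larger of their SDs in bam ovaries and in bam testes, as did 27 pairs in mCherry RNAi and 25 in Sxl RNAi ovaries.

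In bam testes against bam ovaries, 28 of the 31 standard subunits had a log2 fold change above 0, but only 3 passed the test, Prosbeta3, Prosbeta6 and Rpn8, all higher. Of all genes tested, 16.4% passed in that direction and 16.3% in the other. The median of the 31 was 0.34, beside 0.01 over all genes. An unadjusted p under 0.05 was found for 9, where 32.7% of all genes passed even the adjusted threshold. The groups did not overlap for 7 subunits, all higher in testes, where 23.9% of all genes were higher and 24.2% lower without overlap. The share of subunits past the adjusted threshold or without overlap was therefore no larger than that of all genes. Without bam testis replicate 2 the median was 0.18.

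Prosbeta3, a structural subunit of the beta ring, stood at 129, 142 and 155 CPM in bam ovaries and 225, 343 and 196 CPM in bam testes. The log2 ratio was 0.82 (SE 0.21, adjusted p = 0.0251). Prosbeta6 of the same ring held 171, 183 and 189 CPM in ovaries and 275, 404 and 247 CPM in testes, a log2 ratio of 0.75 (SE 0.19, adjusted p = 0.0231). In the lid, Rpn8, the partner of the deubiquitinase Rpn11, held 216, 232 and 233 CPM in ovaries and 313, 359 and 289 CPM in testes (log2 0.49, SE 0.13, adjusted p = 0.0270). For all 3, bam testis replicate 2 was the highest library. None of the 3 calls survived without bam ovary replicate 1, 2 or 3 or without bam testis replicate 1, where the adjusted p lay between 0.0511 and 0.123. Rpn8 also missed the threshold without bam testis replicate 2 (adjusted p = 0.0558), with upper-quartile scaling (adjusted p = 0.0603) and without the filter on low counts (adjusted p = 0.0504). Leaving out bam testis replicate 3 instead raised the number of subunits called to 8. The number of all genes called also changed when a library was left out, so this number is not read as a result about the subunits.

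The catalytic subunits did not pass. Prosbeta1, which cleaves after acidic residues, had 154, 165 and 207 CPM in bam ovaries and 220, 333 and 173 CPM in bam testes (log2 0.45, SE 0.24, adjusted p = 0.206). Prosbeta2, which cleaves after basic residues, had 177, 192 and 220 CPM in ovaries and 254, 339 and 213 CPM in testes (log2 0.44, SE 0.18, adjusted p = 0.117). Prosbeta5, which cleaves after hydrophobic residues, had 203, 214 and 292 CPM in ovaries and 255, 355 and 199 CPM in testes (log2 0.17, SE 0.24, adjusted p = 0.621). In each case the groups overlapped, since bam testis replicate 3 lay within or below the ovary range. Over the whole beta ring the median log2 value was 0.45. Of its 7 subunits 2 were called, Prosbeta3 and Prosbeta6, beside 16.4% of all genes called higher, a number too small to read.

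In the alpha ring the median was 0.51 and none of the 6 measured subunits passed. Prosalpha2 held 199, 214 and 243 CPM in bam ovaries and 271, 345 and 222 CPM in bam testes (log2 0.34, SE 0.18, adjusted p = 0.189). Prosalpha6, the partner of Prosalpha6T, held 183, 201 and 236 CPM in ovaries and 256, 354 and 218 CPM in testes (log2 0.40, SE 0.19, adjusted p = 0.164). Prosalpha4, the partner of Prosalpha4T1 and Prosalpha4T2, was nearest to 0 in this ring, at 225, 258 and 337 CPM in ovaries and 291, 399 and 224 CPM in testes (log2 0.14, SE 0.24, adjusted p = 0.697). For each of these 3 genes bam testis replicate 3 lay within or below the ovary range.

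Among the other regulatory subunits the medians were lower, 0.32 over the 8 of the lid and 0.23 over the 4 base subunits that are not ATPases. Rpn12 of the lid had 129, 139 and 167 CPM in bam ovaries and 211, 288 and 171 CPM in bam testes, without overlap but with an adjusted p of 0.0610 (log2 0.61, SE 0.20). Rpn13 had 150, 163 and 193 CPM in ovaries and 199, 304 and 173 CPM in testes (log2 0.40, SE 0.22, adjusted p = 0.207). Rpn3 had 180, 197 and 229 CPM in ovaries and 251, 304 and 204 CPM in testes (log2 0.31, SE 0.17, adjusted p = 0.214). The scaffold subunits Rpn1 and Rpn2 did not overlap between the groups, yet their log2 values were 0.14 and 0.20, with adjusted p-values of 0.471 and 0.279.

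**Figure D3:**
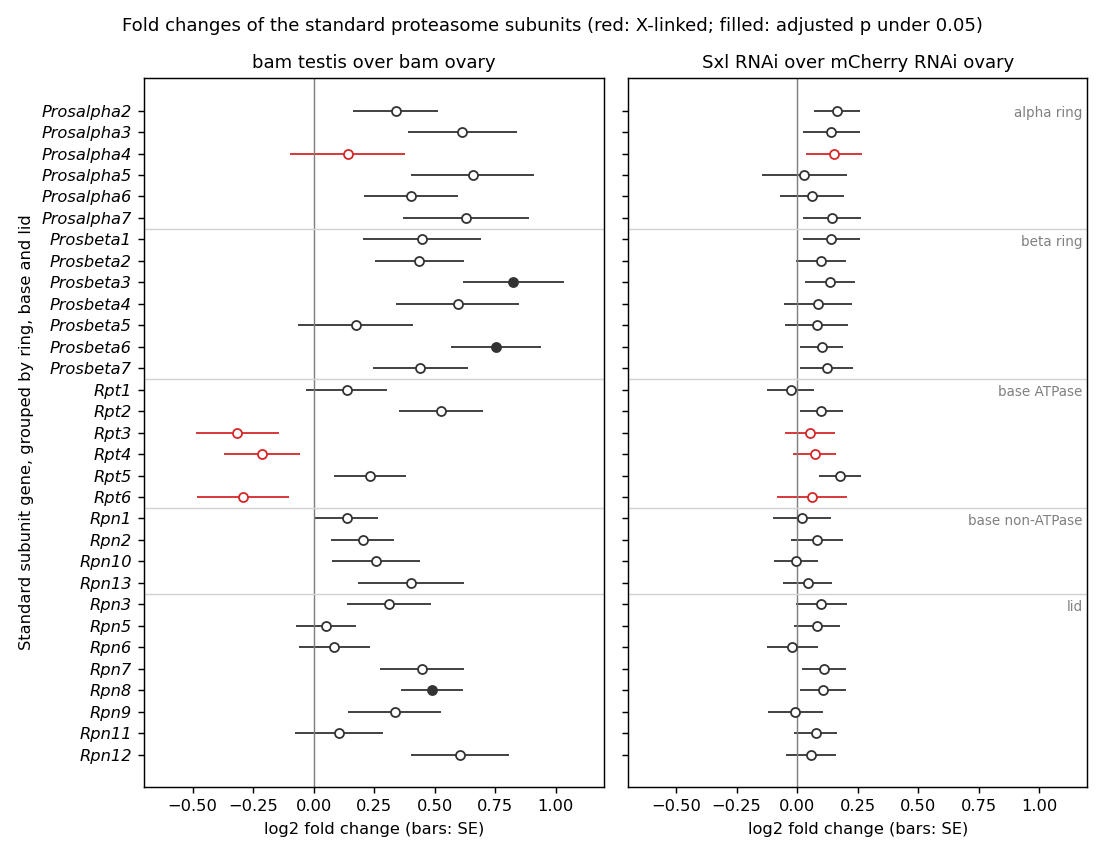
Log2 fold change of the 31 standard subunits, grouped by class, for bam testes over bam ovaries on the left and Sxl RNAi over mCherry RNAi ovaries on the right, with bars of 1 SE on each side, filled points for an adjusted p under 0.05 and X-linked genes in red. On the left, values run from -0.32 for Rpt3 to 0.82 for Prosbeta3, and the 3 values below 0 are those of Rpt3, Rpt4 and Rpt6, while on the right they run from -0.03 to 0.18.

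The ATPase ring was mixed, with a median of -0.04 over its 6 subunits. Rpt2, on chromosome 3R and named after its values were seen, had 227, 245 and 281 CPM in bam ovaries and 339, 452 and 303 CPM in bam testes, without overlap (log2 0.53, SE 0.17, adjusted p = 0.0581). Rpt1 and Rpt5 lay at 0.14 and 0.23. Rpt3, Rpt4 and Rpt6 were the only standard subunits with values below 0, none past the threshold. Of the 31 standard subunits 12 overlap a gene on the other strand, by up to 15.7% of the exon bases in Rpn9, with 13.0% in Rpt6, 7.14% in Rpt2 and 6.35% in Rpt4, and reads there cannot be told apart by strand. Rpt3, Rpt4 and Rpt6 are X-linked, as is Prosalpha4, a feature looked at after the values were seen. The 4 X-linked subunits had a median of -0.25 and the 27 autosomal ones a median of 0.40, with all autosomal values above 0. Over all genes the median was -0.41 for 1656 X-linked and 0.09 for 7867 autosomal genes. The 3 testis forms of these ATPases, Rpt3R, Rpt4R and Rpt6R, are autosomal.

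**Figure D4:**
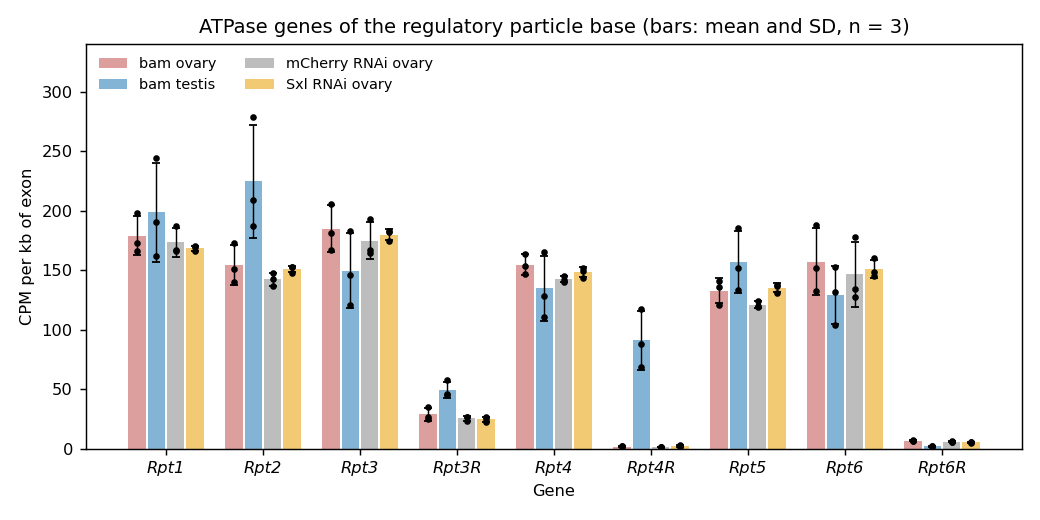
Levels of the base ATPases and their 3 testis forms in CPM per kb of exon, with 1 point per library and bars from 0 to the mean of each group, with its SD (n = 3). Rpt4R reaches 68.4 to 117 CPM per kb in bam testes, beside 111 to 165 for Rpt4 there, whereas Rpt6R stays at or below 7.48 in every library.

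Exon length moved with these values. Over all genes, the median log2 fold change of testes over ovaries fell from 0.27 for the 1580 genes of up to 1000 exon bases to -0.25 for the 2952 genes over 3000 bases. The 9 standard subunits in the shortest class had a median of 0.61 and the 2 in the longest, Rpn1 and Rpn2, of 0.17. The 10 subunits of over 1000 and up to 1500 bases stood at 0.22, beside 0.21 for all genes of that class, and the 10 of over 1500 and up to 2000 bases at 0.27, beside 0.11. With the length trend of each library removed, an analysis added after the data were seen, 10 subunits were called higher and 3 lower, where 26.9% of all genes were called higher and 22.5% lower, 49.4% in all. The 13 of 31 subunits were thus a smaller share than that of all genes in both directions together. The 10 higher of 31 were slightly above the 26.9% of all genes, a difference too small to read and not tested. The 10 were Prosalpha3, Prosalpha5, Prosalpha7, Prosbeta3, Prosbeta4, Prosbeta6, Rpt2, Rpn7, Rpn8 and Rpn12, and the 3 were Rpt3, Rpt4 and Rpt6. Their log2 values became -0.42 for Rpt3 (adjusted p = 0.0112), -0.34 for Rpt4 (adjusted p = 0.0163) and -0.42 for Rpt6 (adjusted p = 0.0159).

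**Figure D5:**
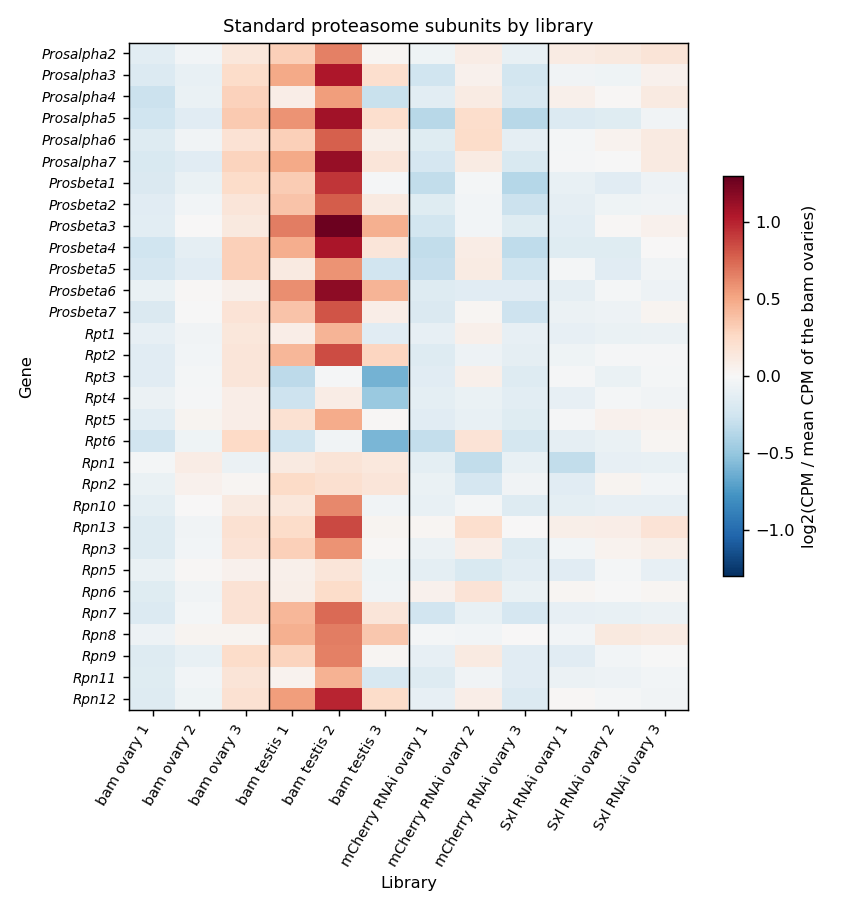
Log2 ratio of each library's CPM to the mean of the bam ovaries, for the 31 standard subunits (rows) and the 12 libraries (columns), with the colour scale centred on 0. The median of a library's 31 values is 0.31, 0.66 and 0.04 in bam testes 1, 2 and 3 and lies between -0.16 and 0.17 in the ovary libraries.

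Libraries of 1 group differed in the summed level of the 31 subunits. It was 6480, 7026 and 8018 CPM in bam ovaries and 8497, 10994 and 7293 CPM in bam testes, so that testis replicate 3 lay inside the ovary range. Bam testis replicate 2 was the highest of all 12 libraries and had the lowest TMM factor. As a share of assigned reads, before that scaling, the 31 genes took 0.672%, 0.723% and 0.784% of the bam ovary libraries and 0.818%, 0.886% and 0.772% of the testis libraries. The sums were 6484, 7230 and 6431 CPM in mCherry RNAi ovaries and 6798, 7025 and 7181 CPM in Sxl RNAi ovaries.

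The Sxl RNAi comparison asked what changes in bam ovaries when Sxl is reduced. No standard subunit passed the edgeR test, none had an unadjusted p under 0.05, and DESeq2 called none. Of the 10059 genes tested only 0.209% passed, 0.119% higher and 0.0895% lower. Log2 fold changes of the 31 ran from -0.03 for Rpt1 to 0.18 for Rpt5, with a median of 0.08, beside 0.01 for all genes, and the lowest adjusted p was 0.510. Without mCherry RNAi replicate 2 the median was 0.16. Prosalpha2, Prosbeta6, Rpt2 and Rpt5 were higher without overlap and no subunit was lower, where 8.49% of all genes were higher and 9.64% lower in that way. Rpt5, for example, had a mean of 197 ± 4.62 CPM in mCherry RNAi and 220 ± 5.94 CPM in Sxl RNAi ovaries. Of the testis forms, none of the 5 passed, none had an unadjusted p under 0.05 and DESeq2 called none. Rpn12R and Prosbeta2R2 were lower and Rpt4R higher without overlap. The log2 value of Rpn12R was -0.68 (SE 0.35, adjusted p = 0.524), and Rpt3R and Rpt6R had values of -0.04 (SE 0.11) and -0.12 (SE 0.15).

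The mCherry RNAi ovaries were also set beside the bam ovaries, as a measure of how far the 2 groups of ovaries with intact Sxl differed. Neither edgeR nor DESeq2 called a standard subunit, none of the 31 had an unadjusted p under 0.05, and 6.11% of all 9940 genes passed, 3.78% higher and 2.32% lower. Values lay between -0.24 for Prosbeta1 and 0.08 for Rpn13, and 29 of 31 were below 0, with a median of -0.12 beside -0.01 for all genes. Without bam ovary replicate 3 the median was -0.000244. Rpt4, Rpn1, Rpn5 and Prosbeta6 were lower without overlap, and none was higher, where 14.4% of all genes were lower and 16.9% higher in that way. No testis form passed in edgeR or DESeq2, and 1, Prosbeta2R2, had an unadjusted p under 0.05. This comparison shares the bam ovaries with the sex comparison and the mCherry RNAi ovaries with the Sxl RNAi comparison.

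The sex effect and the Sxl RNAi effect share no library, and their difference was tested in a fit to all 12. It passed for 25.6% of the 10382 genes. For Rpt4R the sex effect was larger by 5.06 (log2, SE 0.39, adjusted p = 5.11e-06) and for Rpt3R by 0.82 (SE 0.21, adjusted p = 0.0158). For Rpt6R the difference was -1.62 (SE 0.24, adjusted p = 0.000595). These 3 passed in all 18 alternatives. Prosbeta2R2 and Rpn12R did not pass, at -0.56 (adjusted p = 0.269) and -1.23 (adjusted p = 0.189). Among the standard subunits 1 passed, Prosbeta6, at 0.68 (SE 0.23, adjusted p = 0.0480). An unadjusted p under 0.05 was found for 4 of the 31, where 25.6% of all genes passed even the adjusted threshold. The call for Prosbeta6 was lost without any 1 of bam ovary replicates 1, 2 or 3, bam testis replicate 1 or any RNAi library, with adjusted p-values of 0.0529 to 0.110.

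Genes that assemble, regulate or feed the proteasome were taken from a list of 23, of which 21 matched a gene ID and 20 were tested. In bam testes 2 of the 20 rose and none fell, fewer in each direction than the 16.4% and 16.3% of all genes, with a median log2 value of 0.18 beside 0.01 for all genes. Pomp, which encodes the chaperone of core particle assembly, rose from 95.8 ± 16.0 to 182 ± 57.4 CPM (log2 0.91, SE 0.24, adjusted p = 0.0274). Uch-L5, which encodes a deubiquitinase of the regulatory particle, rose from 105 ± 10.95 to 167 ± 23.7 CPM (log2 0.67, SE 0.15, adjusted p = 0.0154). The calls of Pomp and Uch-L5 were not followed through the alternative analyses. Sem1, the smallest lid subunit, whose symbol falls outside the naming rule, stood at 83.3 ± 17.6 and 128 ± 44.5 CPM (adjusted p = 0.128). The gene of the transcription factor cnc, whose vertebrate relatives drive proteasome genes, had a log2 value of -0.05. No gene of the list passed in the Sxl RNAi comparison (median 0.02) or between mCherry RNAi and bam ovaries (median -0.10). The sex effect exceeded the Sxl RNAi effect for Uch-L5 by 0.94 (log2, SE 0.17, adjusted p = 0.00199).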

How the data were processed

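The authors deposited raw counts per gene for every library. TopHat2 2.1.1, Bowtie2 2.2.9, HTSeq 0.9.1, FastQC and DESeq are named with build BDGP6, per the submitters' processing notes. Per the labels' protocols, 200 ng of RNA entered each TruSeq v2 library, a kit that does not mark strand, so reads of overlapping genes cannot be told apart by strand. The sources used here give neither the annotation release nor the counting settings. HTSeq's 5 summary lines, 12.0% to 17.1% of reads, were left out.

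Symbols were found for 17252 of 17559 IDs. Positions and exon lengths came from Ensembl release 115 of BDGP6, which may differ from the annotation counted on. No sequence was used.

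edgeR 4.0.16 (R 4.3.3) was run on the 6 libraries of each comparison separately: TMM scaling, filterByExpr, robust quasi-likelihood F test, Benjamini-Hochberg adjusted p under 0.05 over all genes. The SE is the log2 fold change over the square root of F. Prosalpha1 was too low to test in the Sxl RNAi comparison. The replicates are biological per the labels. The floor of 3 counts covers counting error only. Alternatives were DESeq2 1.42.0, 2 other scalings, no filter, all 12 libraries in one fit, a replicate block, leaving out each library and, chosen after seeing the data, removal of a lowess trend on exon length (R, span 0.5). The scripts were tested on simulated counts.

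The members, lists and tests were chosen with earlier results of these data known. Per-library values were given for testis forms with a count and their partners, catalytic subunits, called subunits (at most 6 per direction) and the subunits of highest and lowest level per kb, and for Rpt2, chosen after its values were seen. Of the marker lists, gonad soma genes (5) summed to 427 to 675 CPM in bam ovaries and 120 to 187 CPM in bam testes, and hemocyte genes (4) to 281 to 416 and 238 to 347 CPM.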

Additional observations from a re-analysis of the deposited data

Results flagged for a closer look

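Of the members, 4 responded differently to sex than to Sxl RNAi by the test of the difference itself in the fit to all 12 libraries, namely 3 of the 5 testis forms tested and 1 of the 31 standard subunits, beside 25.6% of all genes. The sex effect minus the Sxl RNAi effect was 5.06 for Rpt4R on the log2 scale, 0.82 for Rpt3R, -1.62 for Rpt6R and 0.68 for Prosbeta6. For the 3 ATPase paralogs the sex effects were 5.64, 0.76 and -1.76 and the Sxl RNAi effects 0.61, -0.04 and -0.12. The value for Prosbeta6 is the least certain, since its adjusted p of 0.0480 passed in 5 of 18 alternatives. Groups of 3 are too small for a test of single outlying libraries.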

How the results depend on the processing

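Direction and call held for Rpt4R and Rpt6R between testes and ovaries in all 13 alternatives. The median log2 value of the 31 standard subunits there ranged from 0.18 to 0.47 when libraries were left out and stayed above 0 in every alternative. The number of standard subunits called, 3, became 7 with DESeq2, 10 with all 12 libraries in one fit, 13 with the length trend removed, 2 with upper-quartile scaling, 2 without the filter and 0 to 8 with a library left out. The 5 testis forms called became 3 to 4 with a library left out. Of all genes, 3186 were called between testes and ovaries, 4809 with the length trend removed and 1924 to 3539 with a library left out. Counts of all genes with DESeq2, the other scalings, no filter or all 12 libraries in one fit are not given here. The numbers of subunits called there are therefore not read as a result about the subunits. In the Sxl RNAi comparison 21 genes became 327 with DESeq2, 39 without the filter, 43 with all 12 libraries in one fit, 45 with the length trend removed and 3 to 23 with a library left out. Between mCherry RNAi and bam ovaries 607 became 1262 with DESeq2, 1407 with the length trend removed and 153 to 388 with a library left out. For the difference of effects, the 1 standard subunit became 3 with DESeq2, 0 with upper-quartile scaling, 0 without the filter, 7 with the length trend removed and 0 to 5 with a library left out. All genes were counted for this difference only in the main fit, where 25.6% passed. The numbers of subunits in these alternatives therefore have no share of all genes beside them. The Sxl RNAi value of Rpt3R, -0.04, ranged from -0.10 to 0.033 with a library left out and turned positive without Sxl RNAi replicate 1, past the threshold in neither case. A fit with a library left out also has fewer samples, and the cause of none of these changes was tested.

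Same-numbered libraries did not deviate together (correlations of 0.04, -0.35 and -0.56 between testes and ovaries). Deviations from a mean of 3 libraries depend on each other, so these correlations cannot decide whether the numbers pair the samples. With the replicate number as a block, calls between testes and ovaries were 1696 of all genes (826 higher, 870 lower), 0 standard subunits and 2 testis forms, Rpt4R and Rpt6R. The replicate block left 3 genes in the Sxl RNAi comparison, 93 between mCherry RNAi and bam ovaries and 0 standard subunits for the difference of effects, and it changed no other count of members. Depth limits what can be said of the 10 testis forms at or near 0 other than Prosalpha1R, whose reads may align to more than 1 place.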
